A study of Mus musculus with 2 samples.

Results

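Natural killer (NK) barcodes made up 254 of the 26063 cell barcodes in 2 single-cell RNA libraries of mouse colon tumours, 189 from the library of a tumour treated with an antibody against SLC7A11 and 65 from the control IgG library. They were chosen by transcript counts, as unique molecular identifiers (UMIs). An NK barcode had at least 2 UMIs summed over Ncr1, Klrb1c, Klre1, Klra8 and Eomes, no UMI of the T cell genes Cd3d, Cd3e or Cd3g, and none of Siglech, a gene of plasmacytoid dendritic cells. It also had at most 1 UMI of Hmga2, a gene of the CT26 tumour cells, under 2000 CPM (UMIs per 1000000 UMIs of the barcode) of the 3 complement C1q genes of macrophages, and under 20% mitochondrial UMIs. The levels of these genes therefore follow from the choice and are given as a description. CD8 T barcodes, with at least 2 UMIs of Cd8a and Cd8b1 and at least 1 of the Cd3 genes under the same other limits, served for comparison, 511 in the antibody and 78 in the control library.

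The tumours grew from CT26, an established mouse colon carcinoma line, placed at the junction of the caecum, although the design text also speaks of subcutaneous growth. Once tumours measured 50 to 100 mm³, mice received SLC7A11-Ab or anti-IgG every 2 days, each at 10 mg/kg. SLC7A11 is the transport subunit of system xc-, which takes up cystine in exchange for glutamate. Strain, age and sex of the mice, and whether tumours were pooled, are not given in the sources used here. With 1 library per group no difference between antibody and control has a replicate check and no test was possible. The 95% intervals below, exact binomial for shares and exact conditional binomial for ratios of counts, cover counting error only.

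NK cells are innate lymphocytes that kill tumour and infected cells without a rearranged antigen receptor. They weigh signals from activating receptors such as NKp46 (encoded by Ncr1) and NKG2D (Klrk1) against inhibitory receptors that bind MHC class I, among them the mouse Ly49 family (Klra genes) and CD94/NKG2A (Klrd1 and Klrc1). Killing uses perforin and granzymes released from granules, and NK cells in tumours also secrete interferon gamma and the chemokines XCL1 and CCL5, which attract dendritic cells. The transcription factors T-bet (Tbx21) and EOMES, with RUNX and ETS family members, are known to drive NK development.

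The promoters of 4 genes on which the description turns are shown first: the receptor gene Ncr1, the granzyme genes Gzma and Gzmb, and the chemokine gene Xcl1. Each is 300 bases of RefSeq sequence on build GRCm38.p6, 250 before and 50 after the annotated start, written 5′ to 3′ on the gene's own strand. Ncr1 lies at chr7:4337465-4337764 on the plus strand (the table lists 2 start sites for it, of which the first is shown), Gzma at chr13:113100932-113101231, Gzmb at chr14:56262285-56262584 and Xcl1 at chr1:164935473-164935772, all 3 on the minus strand. Capitals mark 3 sets of letters on either strand. The T-box core is AGGTGT and reads as ACACCT on the opposite strand. The RUNX core is TGTGGT and reads as ACCACA there. The ETS core is GGAAGT and reads as ACTTCC there.
Ncr1: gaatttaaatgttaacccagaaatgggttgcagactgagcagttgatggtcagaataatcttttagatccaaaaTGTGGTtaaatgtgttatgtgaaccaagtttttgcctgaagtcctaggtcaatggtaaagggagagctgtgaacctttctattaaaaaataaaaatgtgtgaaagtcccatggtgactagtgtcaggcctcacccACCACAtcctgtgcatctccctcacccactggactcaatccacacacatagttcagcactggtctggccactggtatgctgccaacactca
Gzma: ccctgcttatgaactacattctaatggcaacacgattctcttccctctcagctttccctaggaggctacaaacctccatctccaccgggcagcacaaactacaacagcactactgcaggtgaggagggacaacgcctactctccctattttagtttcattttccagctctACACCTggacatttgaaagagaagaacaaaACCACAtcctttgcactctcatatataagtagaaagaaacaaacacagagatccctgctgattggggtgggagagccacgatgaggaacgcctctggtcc
Gzmb: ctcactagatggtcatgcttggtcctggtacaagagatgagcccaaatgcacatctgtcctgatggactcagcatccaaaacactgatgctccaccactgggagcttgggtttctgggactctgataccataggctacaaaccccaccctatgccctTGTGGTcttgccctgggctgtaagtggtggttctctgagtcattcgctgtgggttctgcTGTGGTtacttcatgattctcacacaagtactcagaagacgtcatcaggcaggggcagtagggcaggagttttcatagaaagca
Xcl1: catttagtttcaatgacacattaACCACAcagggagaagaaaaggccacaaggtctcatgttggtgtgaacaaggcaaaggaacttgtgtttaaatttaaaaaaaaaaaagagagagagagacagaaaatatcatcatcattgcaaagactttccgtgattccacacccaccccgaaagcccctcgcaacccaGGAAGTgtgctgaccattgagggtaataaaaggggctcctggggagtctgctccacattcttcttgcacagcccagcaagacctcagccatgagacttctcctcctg
The RUNX letters occurred in all 4 windows, with 2 matches in Ncr1, 1 in Gzma, 2 in Gzmb and 1 in Xcl1. The T-box letters occurred once, in Gzma, and the ETS letters once, in Xcl1. Of 32851 mouse promoter windows of this length, 16.8% held the RUNX, 13.7% the T-box and 23.8% the ETS letters. These matches describe letters only.

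The antibody library held 12153 and the control library 13910 barcodes, of which 12073 and 13864 passed the mitochondrial limit, with medians of 7893 and 7586 UMIs. The labels give the cell type as goblet cells, but of 9 goblet cell markers the highest, Zg16, reached 0.508 CPM over the antibody and 1.31 CPM over the control library, and all 9 were at 0 in the NK barcodes. NK barcodes were shallow, with a median of 1472 UMIs in the antibody library (519 to 14471) and 1825 in the control library (604 to 10378), against 3208 and 1946.5 in CD8 T barcodes. Summed, they held 408513 antibody and 143623 control UMIs, so 1 UMI was worth 2.45 CPM of the class in the antibody and 6.96 CPM in the control library. The libraries shared 39 barcode sequences, of which 0 were antibody and 2 were control NK barcodes. A group of genes was higher in every class of the antibody library. Of the 488 genes at least 2-fold higher in its NK barcodes, 191 (39.1%) were also at least 2-fold higher in its CD8 T, macrophage and tumour barcodes. Of the 278 lower genes, 3 (1.08%) were also at least 2-fold lower in all of these. The matching shares over all genes are not given here. In tumour barcodes Cox5a stood at 579 CPM in the antibody and 12.2 CPM in the control library, and Tomm20 at 558 and 28.4 CPM. For such genes an effect of the antibody and a difference in how the libraries were made cannot be told apart.

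NK barcodes were a larger share of the antibody library than of the control library. They were 1.57% of kept antibody barcodes (1.35 to 1.80%) and 0.469% of kept control barcodes (0.362 to 0.597%), which is 3.34-fold (2.51 to 4.50). The size of this difference depended on the denominator, since the antibody library held fewer tumour barcodes, 6346 against 9891 in the control library. Among barcodes with at most 1 Hmga2 UMI, NK barcodes were 3.30% in the antibody and 1.64% in the control library, 2.02-fold (1.51 to 2.72). Among barcodes with a UMI of Ptprc, which encodes the leukocyte antigen CD45, they were 167 of 3677 (4.54%) in the antibody and 61 of 1483 (4.11%) in the control library, 1.10-fold with an interval that includes 1 (0.819 to 1.51). CD8 T barcodes differed more between the libraries, with 4.23% of kept barcodes in the antibody and 0.563% in the control library (7.52-fold, 5.92 to 9.67). There were thus 0.370 NK barcodes per CD8 T barcode in the antibody library and 0.833 in the control library, a log2 ratio of -1.17 (-1.73 to -0.61).

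**Figure D1:**
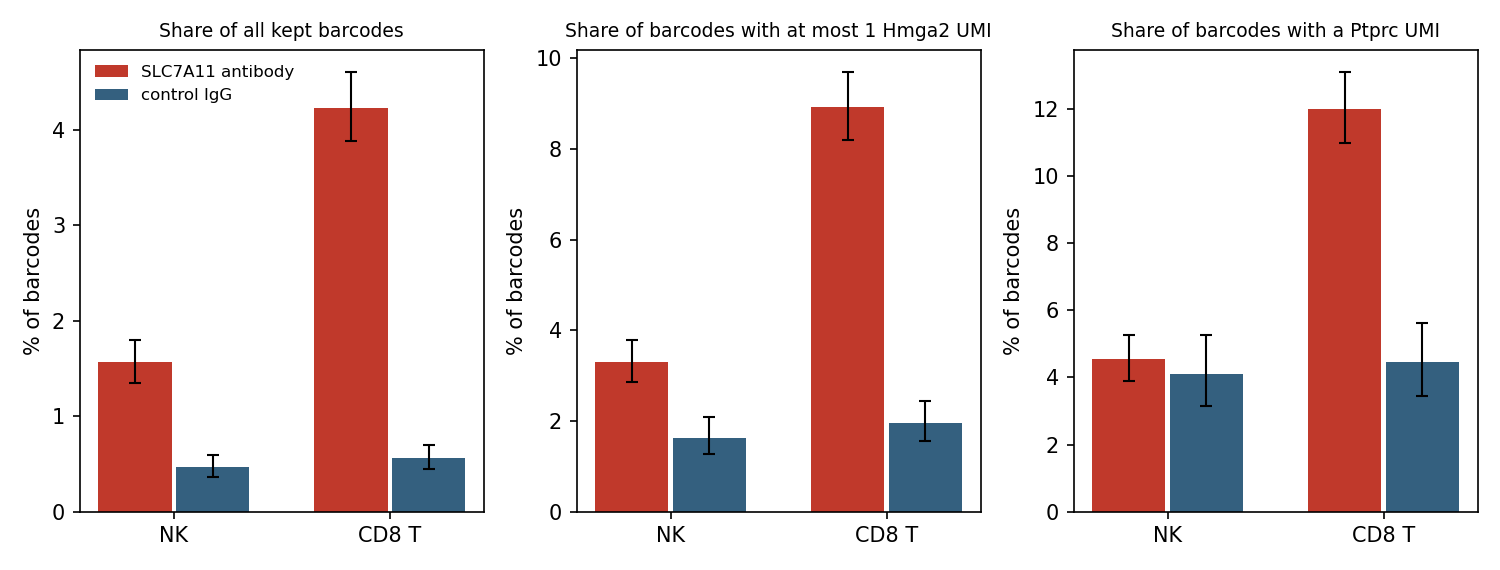
NK and CD8 T barcodes as a percentage of 3 sets of barcodes in the SLC7A11 antibody and control IgG libraries (bars; lines are exact 95% intervals, counting error only). The NK share was 1.57% in the antibody and 0.469% in the control library over all kept barcodes, and 4.54% and 4.11% over barcodes with a Ptprc UMI.

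Most members rested on Ncr1. It was detected in 173 of 189 antibody barcodes and 63 of 65 control barcodes, at 1454 and 1950 CPM. Klre1, which encodes a lectin-like receptor, reached 433 CPM in antibody and 571 CPM in control NK barcodes. Eomes reached 108 and 202 CPM, and Klrb1c, which encodes the NK1.1 antigen of some strains, 117 and 139 CPM. Klra8 had 1 UMI in antibody NK barcodes and 0 in control NK barcodes. Exactly at the threshold of 2 UMIs were 48 antibody and 15 control barcodes, and 67 and 17 with 1 UMI lay just outside. Gzma was detected in 70.8% of the antibody and 73.3% of the control barcodes just inside, and in 35.8% and 52.9% of those just outside. A further 218 antibody and 39 control barcodes had at least 2 UMIs of the NK genes but also a Cd3 transcript, and Gzma was detected in 16.1% and 23.1% of these.

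Gzma and Tyrobp, both outside the choice, had far higher levels in NK than in CD8 T barcodes of both libraries. Gzma, the marker not used in the choice, encodes granzyme A, a granule protease. It stood at 3853 CPM in NK barcodes and 20.5 CPM in CD8 T barcodes of the antibody library, and at 5682 and 10.2 CPM in those of the control library. With all barcodes thinned to 1000 UMIs, Gzma was seen in 60.7% of antibody and 64.4% of control NK barcodes, against 0.934% and 0.614% of macrophage barcodes, which should lack it. Without thinning the NK shares were 67.7% and 69.2%. Tyrobp, the DAP12 adaptor of activating receptors, stood at 1376 CPM in NK and 56.1 CPM in CD8 T barcodes of the antibody library, and at 2033 and 51.0 CPM in the control library. Tyrobp or its relative Fcer1g was detected in 97.9% of antibody and 100% of control NK barcodes, although macrophages also express both.

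Beyond the Cd3 genes fixed at 0, Cd4, Trac, Cd8a and Cd8b1 were low, while the T cell receptor beta constant genes were not. Cd4 had no UMI in NK barcodes, Trac had 6 in the antibody and 4 in the control library, and Cd8a and Cd8b1 had 1 each in the antibody and 0 in the control library. Transcripts of the T cell receptor beta constant genes were present, with 224 antibody and 105 control UMIs of Trbc1 and 144 and 81 of Trbc2. Klrk1 had 194 and 85 UMIs in the same barcodes. Trdc, the delta chain constant gene, had 58 and 45 UMIs, at 142 CPM in antibody and 313 CPM in control NK barcodes against 2.50 and 0 CPM in CD8 T barcodes, so gamma delta T cells whose Cd3 transcripts were missed cannot be told apart from NK cells here. Il22, which encodes a cytokine of group 3 innate lymphoid cells, had no UMI in NK barcodes of either library.

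Transcripts of other cells differed between the NK barcodes of the 2 libraries, and their part in the differences below was not tested. The 13 macrophage markers summed to 756 CPM in antibody and 202 CPM in control NK barcodes, with Lyz2 in 40.7% and 12.3% of barcodes. Their defining receptors were near 0, with Csf1r and Adgre1 at 1 UMI each in the antibody and 0 in the control library. The 11 dendritic cell markers summed to 747 and 48.7 CPM, most of it MHC class II and its chaperone Cd74, while Xcr1 was at 0 in both. The 10 neutrophil markers summed to 110 and 585 CPM, and all 56 control UMIs of S100a9 lay in 1 barcode. Lists of T cells (933 and 1323 CPM), gamma delta T cells (152 and 341 CPM) and endothelium (75.9 and 216 CPM) were also lower in the antibody library. Fibroblast genes (747 and 425 CPM) and mast cell or basophil genes (51.4 and 0 CPM) were higher, and those of group 2 or 3 innate lymphoid cells (220 and 195 CPM), plasmacytoid dendritic cells (1109 and 1163 CPM), B cells (80.8 and 69.6 CPM) and CT26 cells (93.0 and 90.5 CPM) were close. The C1q genes lay between 500 and 2000 CPM in 63 of the 189 antibody and 5 of the 65 control NK barcodes. With a limit of 500 CPM, 126 antibody and 60 control barcodes remained and the share differed by a log2 ratio of 1.27.

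NK barcodes differed from CD8 T barcodes in receptor, adaptor and chemokine receptor genes in both libraries. Of 2858 genes with at least 20 UMIs over both classes in each library, 78 (2.73%) were at least 2-fold higher and 100 (3.5%) at least 2-fold lower in NK than in CD8 T barcodes of both libraries. After Ncr1 and Gzma, the genes furthest above CD8 T barcodes were Clnk, an adaptor related to SLP-76, and Car2, a carbonic anhydrase. Clnk stood at 240 CPM in NK and 2.50 CPM in CD8 T barcodes of the antibody library, and at 599 and 0 CPM in the control library. Car2 stood at 365 and 3.50 CPM in the antibody library and at 592 and 20.4 CPM in the control library. Tyrobp, the granzyme gene Gzmc, the chemokine receptor gene Ccr2, the kinase-like gene Styk1, the glycosyltransferase gene Mgat5 and the Ly49 gene Klra3 followed, each with NK over CD8 T log2 ratios between 2.95 and 6.57.

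On the other side stood genes of T cell receptor signalling and of chronically stimulated T cells. Below the Cd3 and Cd8 genes that the choice fixed came Themis, a T cell signalling protein, with 2.45 CPM in NK and 246 CPM in CD8 T barcodes of the antibody library and 0 and 306 CPM in the control library. Pdcd1, which encodes the checkpoint receptor PD-1, stood at 29.4 CPM in NK and 719 CPM in CD8 T barcodes of the antibody library, and at 0 and 1029 CPM in the control library. Cxcr6, the receptor for CXCL16, stood at 80.8 and 669 CPM in the antibody and at 6.96 and 744 CPM in the control library. Lat, the adaptor downstream of the T cell receptor, was 2.58 log2 units lower in NK than in CD8 T barcodes of the antibody library and 2.54 lower in the control library.

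**Figure D2:**
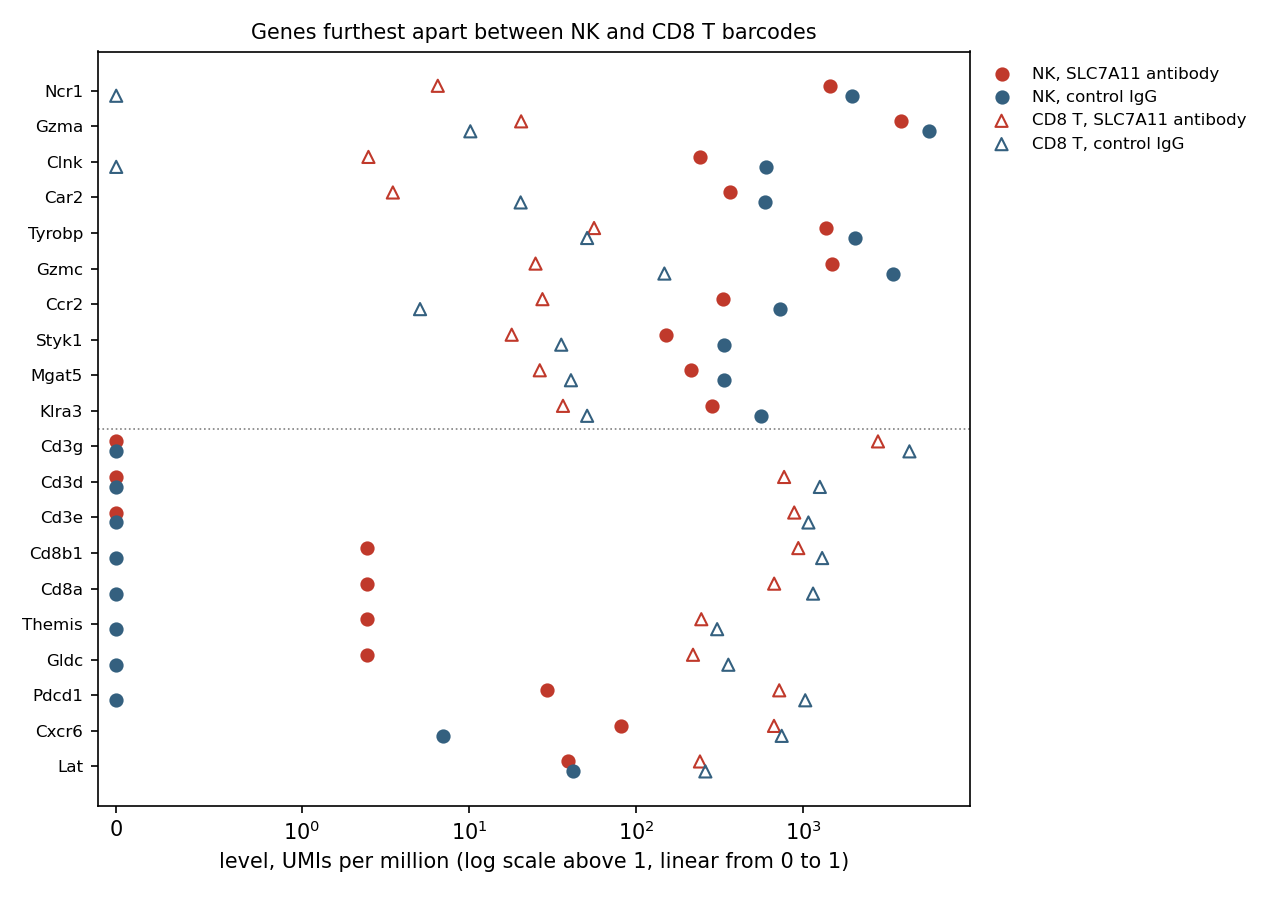
Levels in CPM of the 10 genes furthest above (upper rows) and the 10 furthest below (lower rows) CD8 T barcodes, in NK (filled circles) and CD8 T (open triangles) barcodes of both libraries. Ncr1, Cd3 and Cd8 genes chose the barcodes; Gzma at 3853 and 5682 CPM in NK barcodes did not.

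Among receptors, no measured activating gene and 2 Ly49 genes were at least 2-fold apart between libraries. Over all 4292 genes with at least 20 NK UMIs, 11.4% were at least 2-fold higher and 6.48% at least 2-fold lower in antibody than control NK barcodes, with a median log2 ratio of -0.08. Set against the ratio of all other kept barcodes, 6.06% were higher and 11.8% lower. These other barcodes include CD8 T barcodes, whose share was 7.52-fold higher in the antibody library. Their ratio therefore also varies with the mix of cells, and its part in any value set against them was not tested. None of the 15 measured activating receptor genes passed 2-fold in either direction (median -0.27, or -2.40 set against all other kept barcodes). The list median was 2.30 in all other kept barcodes and, over 12 measured genes, 0.13 in CD8 T barcodes. This list holds genes of the choice, and the 12 measured members without them, a list trimmed after values were seen, had a median of -0.16 and ranged between -0.62 and 0.89. Klrk1 stood at 475 CPM in antibody and 592 CPM in control NK barcodes, and Klrb1f, another lectin-like receptor gene, at 193 and 181 CPM. Both inhibitory receptor genes that passed 2-fold, of 7 measured, were Ly49 genes and lower. Klra7 (Ly49G) stood at 51.4 CPM in antibody and 237 CPM in control NK barcodes, a log2 ratio of -2.19 (-3.06 to -1.38). Klra9 (Ly49I) stood at 34.3 and 76.6 CPM, with an interval that includes 0 (-2.41 to 0.12). Klra3 (Ly49C) stood at 284 and 557 CPM, a log2 ratio of -0.97 (-1.40 to -0.54), and any Klra transcript was seen in 68 of 189 antibody and 42 of 65 control barcodes. Ly49 genes are near-identical to each other, so reads may be split or lost between them and single members are uncertain. The CD94/NKG2 genes showed no such gap, with Klrd1 at 859 and 947 CPM and Klrc1 at 176 and 153 CPM.

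Receptors of terminal maturation and exhaustion were rare. Klrg1, a marker of mature NK cells, had 8 antibody and 11 control UMIs, under the 20 UMIs asked for a ratio. Havcr2, which encodes TIM-3, was seen at 1000 UMIs in 0 of 163 antibody NK barcodes (3 counts would be 1.84%, and the exact upper limit was 2.24%). It was seen in 1 of 59 control NK barcodes (1.69%). Macrophage barcodes gave 4.36% in the antibody and 4.91% in the control library at that depth. Without thinning, 1 NK barcode of each library had it. Lag3 had a UMI in 7.94% of antibody NK barcodes and in 0 of 65 control NK barcodes, and 3 counts of 65 would be 4.62% of barcodes with a UMI. At 1000 UMIs the shares were 3.68% and 0 of 59 (3 counts would be 5.08%), so at this depth a difference was not detectable. CD8 T barcodes showed the same direction for Lag3, at 464 CPM in the antibody and 35.7 CPM in the control library.

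Some granule genes, Prf1 among them, were at least 2-fold lower in antibody than in control NK barcodes. Of 19 measured, 6 were at least 2-fold lower and 0 higher, with a median log2 ratio of -0.59, beside the 6.48% of all genes that were lower. Gzmb, which encodes granzyme B, the main caspase-activating granzyme, stood at 4529 CPM in antibody and 7861 CPM in control NK barcodes, a log2 ratio of -0.80 (-0.90 to -0.69). CD8 T barcodes had it the other way round, at 2967 CPM in the antibody and 2206 CPM in the control library (0.43). At 1000 UMIs, Gzmb was seen in 63.8% of antibody (56.0 to 71.2%) and 91.5% of control NK barcodes (81.3 to 97.2%), with intervals for counting error over the barcodes of 1 library each. Macrophage barcodes gave 1.56% and 0.614%, and without thinning the NK shares were 66.1% and 93.8%. Perforin (Prf1), the pore protein, stood at 1114 and 2339 CPM, a log2 ratio of -1.07 (-1.28 to -0.86), and Gzma at a log2 ratio of -0.56 (-0.68 to -0.44). The highest 5 of the 65 control barcodes held 42.3% of Gzma, 35.3% of Gzmb and 33.0% of Prf1 UMIs. The highest 5 of the 189 antibody barcodes held 15.9%, 22.6% and 21.3%. The intervals of these ratios do not cover such spread between barcodes.

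Gzmc, Gzmd, Gzme and Gzmf, of the chromosome 14 granzyme cluster, had lower levels in antibody than control barcodes of both classes. Gzmg, of the same cluster, had 0 antibody and 2 control NK UMIs, too few for a ratio. Gzmc stood at 1498 CPM in antibody and 3433 CPM in control NK barcodes (log2 ratio -1.20) and had 50 and 29 UMIs in CD8 T barcodes (-2.57). Set against all other kept barcodes the NK ratio of Gzmc was 0.08, so its direction depended on that choice. Set against the median of the CD8 T, macrophage and tumour ratios, Gzmc (1.38), Gzmd (0.93) and Gzmf (0.77) were all above 0. Gzmd, Gzme and Gzmf had log2 ratios of -1.68, -3.88 and -1.61 in NK and -2.62, -1.13 and -2.94 in CD8 T barcodes. Gzme rested on 5 antibody and 28 control UMIs, and reads of these close paralogs may be shared. A few barcodes carried much of the signal, since the highest 5 held 61.9% of antibody and 53.8% of control Gzmc UMIs. Serpinb9, the inhibitor that shields the killer from its own granzyme B, stood at 1246 and 1037 CPM, a log2 ratio of 0.26 with an interval that includes 0, or -0.92 set against all other kept barcodes. In the antibody library 25 of 189 NK barcodes (13.2%) had neither Gzma nor Gzmb, against 1 of 65 (1.54%) in the control library, at medians of 1472 and 1825 UMIs.

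Chemokine genes went the other way. Ccl5 stood at 1897 CPM in antibody and 292 CPM in control NK barcodes, a log2 ratio of 2.68 (2.25 to 3.18). At 1000 UMIs it was seen in 54.0% of antibody and 16.9% of control NK barcodes, against 11.7% and 1.72% of macrophage and 2.79% and 1.02% of tumour barcodes. Without thinning, the highest 5 NK barcodes held 61.9% of its 42 control UMIs and 16.1% of its 775 antibody UMIs. Ccl5 was also higher in antibody CD8 T (2563 against 158 CPM), macrophage (log2 ratio 2.58) and tumour (1.18) barcodes. Ccl4 stood at 3821 and 1351 CPM (1.50, 1.28 to 1.72) and Ccl3 at 485 and 209 CPM (1.19, 0.66 to 1.82), but 5 barcodes held 93.3% of the 30 control Ccl3 UMIs and 64.9% of the 194 control Ccl4 UMIs. Macrophages also express these chemokines, and their ratios were -1.37 for Ccl3 and -0.58 for Ccl4. CD8 T barcodes differed more for Ccl3, with 1240 CPM in the antibody and 10.2 CPM in the control library.

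Xcl1, whose product attracts cross-presenting dendritic cells, had a higher level in NK than in CD8 T barcodes. It stood at 2685 CPM in NK and 159 CPM in CD8 T barcodes of the antibody library, and at 1462 and 209 CPM in the control library. Its NK log2 ratio of antibody over control was 0.87 (0.66 to 1.10), while the share of NK barcodes with it at 1000 UMIs was 61.3% in antibody and 59.3% in control NK barcodes. Most Xcl1 UMIs lay outside the NK barcodes, with 1745 antibody and 381 control UMIs in all other kept barcodes against 1097 and 210 in NK barcodes. Set against all other kept barcodes, the NK ratio of Xcl1 turned to -1.17. Ifng, which encodes interferon gamma, stood at 162 and 83.6 CPM in NK barcodes (0.90, 0.05 to 1.97) on 66 and 12 UMIs, and was lower than in CD8 T barcodes (600 and 499 CPM). At 1000 UMIs Ifng was seen in 12.3% of antibody and 13.6% of control NK barcodes. Set against all other kept barcodes, its NK ratio turned to -2.54. Ltb, which encodes lymphotoxin beta, had 280 UMIs in antibody and 0 in control NK barcodes, at least 5.04 log2 units higher against a floor of 3 counts. The gap was library-wide, since all other kept control barcodes held 17 Ltb UMIs and the ratio was 4.40 in CD8 T and 7.03 in tumour barcodes. Of the 12 measured cytokine and chemokine genes, 5 were at least 2-fold higher and 3 lower (median 0.89, or -0.84 set against all other kept barcodes). Over all genes 11.4% were higher and 6.48% lower.

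**Figure D3:**
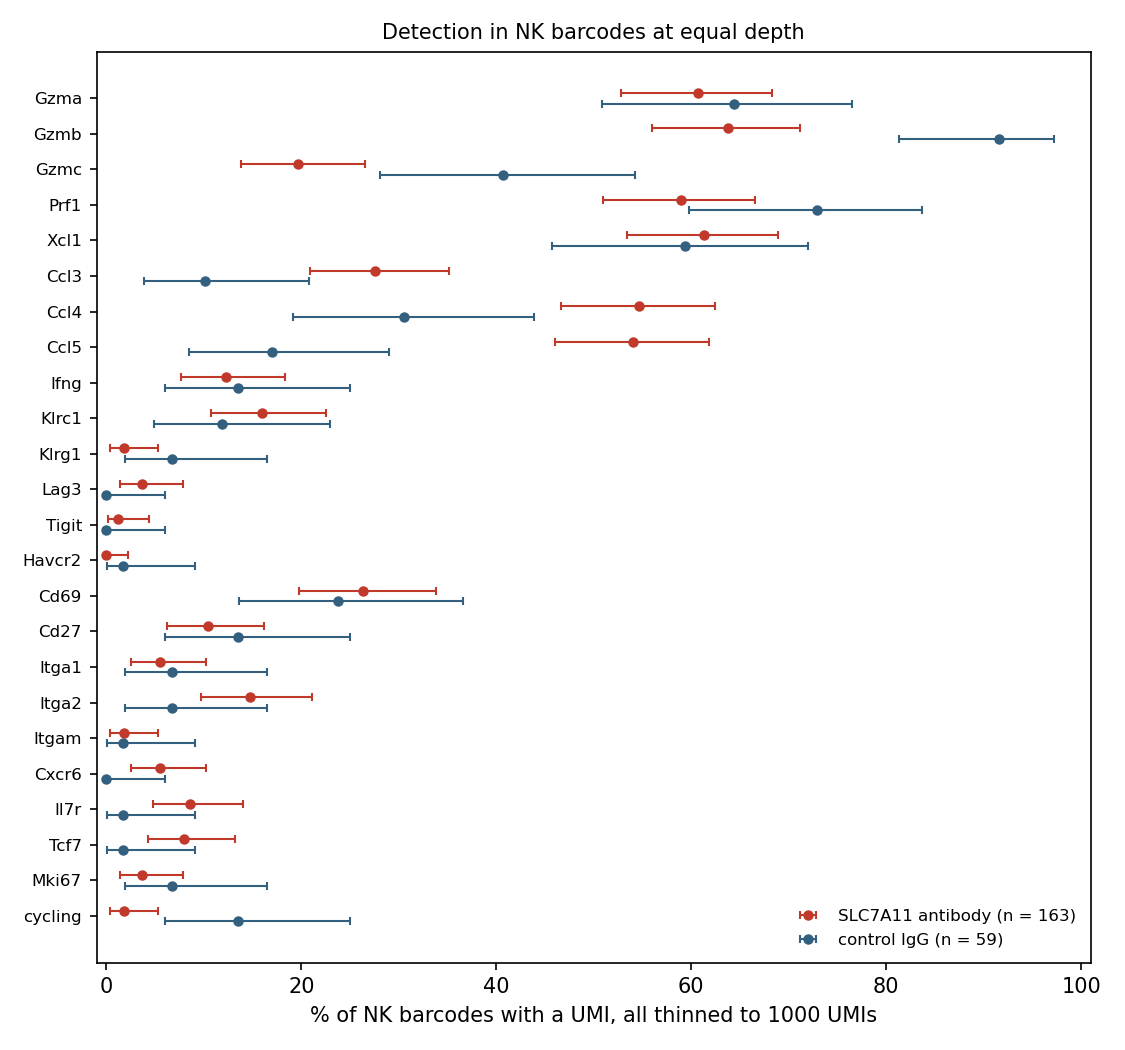
Percentage of NK barcodes with a UMI of each gene after thinning to 1000 UMIs, for 163 antibody and 59 control barcodes (points; lines are exact 95% intervals). Gzmb was seen in 63.8% of antibody and 91.5% of control barcodes and Ccl5 in 54.0% and 16.9%, and Xcl1 in 61.3% and 59.3%; cycling means at least 3 UMIs over 10 mitosis genes.

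NK barcodes were not uniform, and one axis ran along Gzma in both libraries. In the antibody library 61 barcodes had no Gzma (median 1855 UMIs) and 128 had it (1361 UMIs), and in the control library 20 had none (1492 UMIs) and 45 had it (1899 UMIs). Barcodes without Gzma were deeper in the antibody and shallower in the control library. In both libraries they had more Xcl1, at 4578 CPM without and 1607 CPM with Gzma in the antibody library and at 2770 and 1063 CPM in the control library. Cd7, an early lymphoid surface gene, stood at 613 CPM without and 192 CPM with Gzma in the antibody library and at 357 and 109 CPM in the control library. Rora, a transcription factor gene of innate lymphoid cells, stood at 580 and 142 CPM in the antibody library and, on 4 and 2 UMIs, at 119 and 18.2 CPM in the control library.

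Eomes, Itga2 and Klra3 ran the other way. Eomes stood at 33.7 CPM without and 150 CPM with Gzma in the antibody library and at 59.6 and 245 CPM in the control library, and it is one of the genes used in the choice. Itga2, which encodes the NK integrin CD49b, stood at 20.2 and 188 CPM in the antibody library and at 29.8 and 90.9 CPM in the control library. In control barcodes without Gzma, Eomes and Itga2 rested on fewer UMIs than Rora did, too few for a firm comparison in that library. Klra3 stood at 115 and 380 CPM and at 238 and 654 CPM. Tbx21 did not follow, at 236 and 150 CPM in the antibody and 268 and 209 CPM in the control library. In the antibody library alone, Cxcr6 and Il7r, genes of tissue-resident innate lymphoid cells, had 29 and 28 UMIs without Gzma (196 and 189 CPM) and 4 and 5 UMIs with it (15.4 and 19.2 CPM). The control library had 1 and 1 against 0 and 4 UMIs of these genes, too few for a comparison. The split was chosen after values were seen and is given as a description. The choice of NK barcodes set no limit on genes of type 1 innate lymphoid cells, so such cells cannot be told apart from NK cells here.

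Rora was also among the transcription factor genes higher with the antibody, at 301 CPM in antibody and 41.8 CPM in control NK barcodes (log2 ratio 2.74, 1.69 to 4.32). Its ratio was 2.44 in CD8 T, 0.19 in macrophage and 1.18 in tumour barcodes. Of 26 measured NK transcription factor genes 7 were at least 2-fold higher and 0 lower, beside 11.4% and 6.48% of all genes. The list median was 0.47, or -0.09 set against all other kept barcodes. The immediate-early receptor genes Nr4a1 (1.38) and Nr4a2 (1.46) and the quiescence-linked genes Foxo1 (1.20), Bach2 (1.30) and Ets1 (1.15) were among the 7 higher genes. The lineage factors did not pass 2-fold, with Eomes at -0.92 (-1.62 to -0.18), Tbx21 at -0.31 (-0.92 to 0.35) and Id2, the inhibitor of E proteins that all innate lymphoid cells need, at -0.64 (-0.88 to -0.40). Ccr2, a receptor for monocyte chemokines also carried by NK cells, stood at 333 CPM in antibody and 724 CPM in control NK barcodes (-1.12, -1.50 to -0.74). Itgb7, an integrin chain of gut homing, stood at 184 and 41.8 CPM (2.03, 0.95 to 3.63).

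Type I interferon response genes were lower in antibody NK barcodes as a list. Of 18 measured, 8 were at least 2-fold lower and 0 higher, with a median log2 ratio of -0.84, beside the 6.48% of all genes that were lower. Isg15, a ubiquitin-like protein, stood at 237 CPM in antibody and 613 CPM in control NK barcodes (-1.37, -1.80 to -0.93). Usp18, which removes ISG15 from proteins and dampens the receptor, stood at 66.1 and 237 CPM (-1.84, -2.63 to -1.07). Isg20, an exonuclease, stood at 68.5 and 244 CPM (-1.82, -2.60 to -1.07), and Ifi44, Ifit2, Ifit3, Mx1 and Trim30a had ratios from -1.78 to -1.05. In CD8 T barcodes 4 of 24 measured genes of the list were at least 2-fold lower and 1 higher (median -0.56), where 8.73% of all genes were lower and 13.4% higher. Tumour barcodes had several of these genes higher in the antibody library, with Isg15 at 0.91 and Isg20 at 0.81.

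The lists of interferon gamma response and MHC class I genes had medians near 0 in NK barcodes, below those of all other barcodes. Of 20 measured interferon gamma response genes 2 were at least 2-fold higher and 0 lower, beside 11.4% and 6.48% of all genes. Their median was -0.07, or -2.42 set against all other kept barcodes, where these genes were higher with the antibody. Of 16 MHC class I genes 2 were higher and 0 lower (median -0.08, or -1.56 set against all other kept barcodes). H2-D1, a classical class I heavy chain, stood at 5052 CPM in antibody and 1789 CPM in control NK barcodes (1.50, 1.31 to 1.69), and was also higher in CD8 T (1.28), macrophage (1.85) and tumour (2.20) barcodes. Irf8, a transcription factor of the interferon response, stood at 2100 and 1462 CPM (0.52, 0.30 to 0.75, or -1.94 set against all other kept barcodes).

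Cycling barcodes were a smaller share of the antibody NK barcodes, by a log2 ratio of -1.31 whose interval includes 0 (-2.57 to 0.0028). At least 3 UMIs over 10 mitosis genes were found in 13 of 189 antibody (6.88%, 3.71 to 11.5%) and 11 of 65 control NK barcodes (16.9%, 8.76 to 28.3%). At 1000 UMIs the shares were 3 of 163 (1.84%) and 8 of 59 (13.6%), a log2 ratio of -2.75 (-5.43 to -0.82) on these few barcodes. CD8 T barcodes gave 13.3% and 24.0% at that depth. All 11 cycling control barcodes and 12 of the 13 cycling antibody barcodes had Gzmb. Mki67 itself was less far apart, at 95.5 and 111 CPM (-0.25, -1.10 to 0.72). Tumour barcodes cycle, and at 1000 UMIs 23.1% and 23.7% of them met the same criterion, and the part of tumour transcripts in the NK shares was not tested. Of 22 measured proliferation genes 4 were at least 2-fold lower and 0 higher, beside 6.48% and 11.4% of all genes. The list median was -0.64, or -0.44 set against all other kept barcodes.

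Among the genes furthest above 0 were several that were higher across the library. Of 10 genes chosen by size of the NK ratio, Junb, an AP-1 subunit, stood at 3307 CPM in antibody and 55.7 CPM in control NK barcodes (5.80, 4.91 to 7.11) and was 5.29, 4.84 and 5.27 log2 units higher in antibody CD8 T, macrophage and tumour barcodes. Ier2, an immediate-early gene, had 345 antibody and 2 control UMIs (5.60, 4.06 to 8.97), and Cox5a, a respiratory chain subunit, 224 and 2 (4.98, 3.43 to 8.35). Both were more than 3 log2 units higher in the other classes too. The rest, after Ltb, were the histone genes H2aj and H1f4, the mitochondrial import gene Tomm20, the phosphatase gene Ptpn18, the chemokine gene Ccl8 and the chaperone gene Sdf2l1. Ccl8 is a macrophage transcript, at 8041 CPM in antibody macrophage barcodes, and the part of free RNA in its 428 CPM in antibody NK barcodes was not tested.

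The same rule, which also asks for 50 UMIs and detection in 10% of barcodes, gave 10 lower genes. Ms4a4c, a tetraspanning membrane protein of the MS4A family, stood at 44.1 CPM in antibody and 285 CPM in control NK barcodes (-2.67, -3.58 to -1.86) but at 79.1 and 35.7 CPM in CD8 T barcodes (1.05). Klra7 and the Ly49 pseudogene Klra13-ps, Usp18, Isg20 and Gzmd came next. Pecam1, the adhesion molecule CD31, stood at 71.0 and 209 CPM (-1.56, -2.34 to -0.77) and Myo1f, an unconventional myosin of leukocytes, at 122 and 334 CPM (-1.45, -2.05 to -0.85). Chst12, a chondroitin sulphotransferase, and Ap2m1, a clathrin adaptor subunit, completed the 10.

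Signalling genes downstream of the receptors differed little. Of 20 measured adaptor and kinase genes 1 was at least 2-fold higher and 1 lower, beside 11.4% and 6.48% of all genes. The list median was -0.30, or -1.49 set against all other kept barcodes. The lower one was Cish, the inhibitor of interleukin 15 signalling, at 36.7 CPM in antibody and 104 CPM in control NK barcodes on 15 UMIs each. The higher one was Socs3, another cytokine signalling inhibitor, at 120 and 34.8 CPM (1.66, 0.46 to 3.47), and it was also higher in CD8 T (2.57), macrophage (2.19) and tumour (2.79) barcodes. Il2rb, the receptor chain shared by interleukins 2 and 15, was level at 1359 and 1490 CPM (-0.14, -0.36 to 0.10). The 16 measured cytokine receptor and Janus kinase genes had a median of 0.41, or -1.16 set against all other kept barcodes. Of these, 3 were at least 2-fold higher and 1 lower. Il12rb2, a chain of the interleukin 12 receptor, was among them at 428 and 195 CPM (1.11, 0.55 to 1.77), but at -1.49 set against all other kept barcodes.

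Lists of maturity, residency and activation had mixed values, beside 11.4% of all genes at least 2-fold higher and 6.48% lower. None of 9 genes of mature circulating NK cells passed 2-fold (median -0.07, or -0.69 set against all other kept barcodes). Of 12 genes of immature NK cells 3 were at least 2-fold higher and 2 lower (median 0.81), the higher ones being Ltb, Cd7 and Il7r and the lower ones Ccr2 and Thy1. Set against all other kept barcodes this median turned to -1.14, with Ltb at 0.30, Cd7 at -1.25 and Il7r at -1.33. Of 16 genes of type 1 innate lymphoid cells and tissue residency 4 were higher and 3 lower. Their median was 0.42, or -0.80 set against all other kept barcodes. Cxcr6 stood at 80.8 CPM in antibody and 6.96 CPM in control NK barcodes on 33 and 1 UMIs (2.97, 0.96 to 8.88). The integrin gene Itga1, which encodes CD49a of such cells, was on the other side at 49.0 and 111 CPM (-1.19, -2.21 to -0.14). Of 16 trafficking genes 3 were higher and 2 lower (median 0.12, or -1.10 set against all other kept barcodes). Of 15 activation genes 7 were higher and 0 lower (median 0.61, or -0.08 set against all other kept barcodes). Among the higher ones was Nfkbia, the inhibitor of NF-κB, at 2328 and 265 CPM (3.12, 2.67 to 3.65). Its ratios were 2.26, 2.24 and 2.44 in CD8 T, macrophage and tumour barcodes. Of 17 AP-1 and dissociation stress genes 5 were higher and 0 lower (median 0.58), and the antibody and control tissues were handled as separate libraries, so an effect of dissociation and of treatment cannot be told apart. Of 18 hypoxia and glycolysis genes 2 were higher and 1 lower (median -0.05), and of 13 survival and death genes 1 was higher and 4 lower (median -0.05). Set against all other kept barcodes the AP-1, hypoxia and survival medians were 0.12, -0.28 and -0.44.

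Some genes differed between libraries by unlike amounts in NK and CD8 T barcodes, as side-by-side values from separate barcodes. Fcer1g, the Fc receptor gamma chain, stood at 1422 CPM in antibody and 1657 CPM in control NK barcodes, but at 167 and 785 CPM in CD8 T barcodes. Cxcr3, the receptor for interferon-induced chemokines, stood at 152 and 83.6 CPM in NK barcodes (0.81, -0.04 to 1.89, or -1.11 set against all other kept barcodes). In CD8 T barcodes Cxcr3 stood at 30.5 and 61.1 CPM (-1.05, -1.91 to 0.03). Both intervals include 0, on 12 control UMIs in each class. Dscam, an adhesion gene best known from neurons, stood at 166 and 146 CPM in NK and at 25.5 and 107 CPM in CD8 T barcodes. Sgk1, a kinase induced by glucocorticoids, had 49 antibody and 1 control UMIs in NK barcodes (3.54, 1.56 to 9.44) and stood at 50.1 and 56.1 CPM in CD8 T barcodes.

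The target of the antibody was hardly seen in NK barcodes, and its partner was higher. Slc7a11 had 5 UMIs in antibody and 0 in control NK barcodes, both too few for a ratio. Slc3a2, the CD98 heavy chain that pairs with SLC7A11 and other transporters, stood at 375 and 34.8 CPM (3.29, 2.17 to 5.07), and Fth1, the ferritin heavy chain that stores iron, at 3691 and 230 CPM (3.98, 3.51 to 4.55). Both were also higher in antibody CD8 T (2.38 and 4.93), macrophage (1.91 and 3.93) and tumour (1.77 and 3.84) barcodes. Of 13 measured cystine, glutathione and iron genes 2 were at least 2-fold higher and 1 lower (median 0.08), beside 11.4% and 6.48% of all genes.

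**Figure D4:**
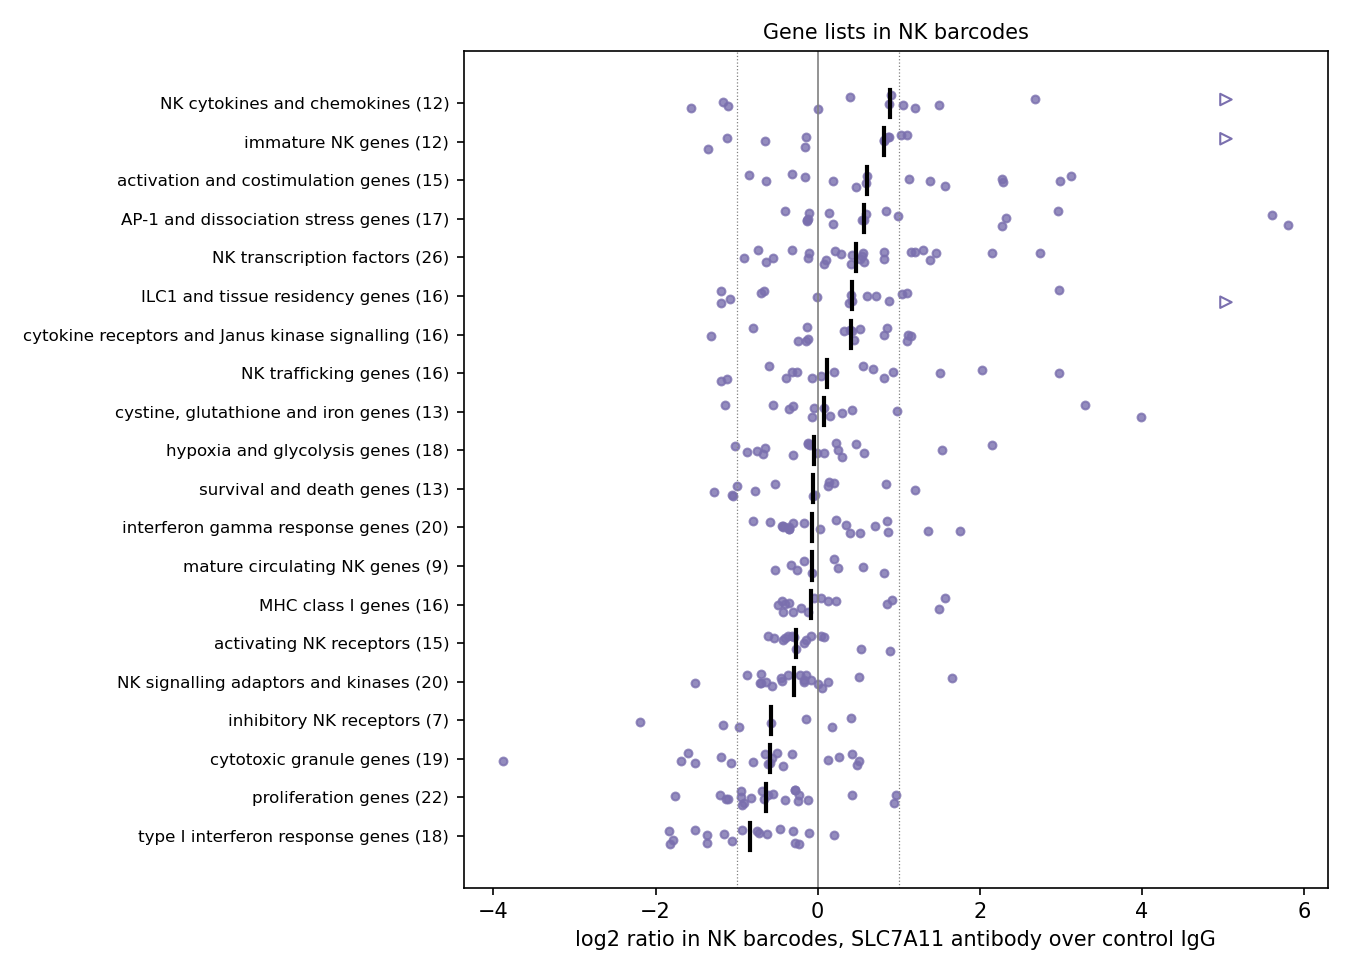
Log2 ratios of antibody over control in NK barcodes for the measured members of 20 gene lists (points; number of members in brackets, bars are medians, dotted lines 2-fold, triangles lower bounds where the control had no UMI). Type I interferon (-0.84), proliferation (-0.64) and granule genes (-0.59) had the lowest medians and NK cytokines (0.89) the highest.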

How the data were processed

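Tumours were digested and single cells captured for 10x Genomics 3' libraries, per the labels' protocols. The authors deposited 2 tables of raw UMI counts, with genes in rows and barcodes in columns. Cell Ranger 7.2.0, Seurat and build mm10 are named per the submitters' processing notes. No column of other samples was found (0 columns). The tables list only genes with a count, so an unlisted gene was taken as 0.

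The NK and CD8 T barcodes, the 20 gene lists and the 13 marker lists were chosen with earlier results of these data known. Of 524 list symbols 6 were not in the tables. Counts were summed per class and library and scaled to 1000000 UMIs of the class (CPM). Log2 ratios, antibody over control and NK over CD8 T, used a prior count of 0.5, and genes needed 20 UMIs over both groups. At least 2-fold is a description of size, with no test. Shares have exact Clopper-Pearson 95% intervals and ratios exact conditional binomial ones, for counting error only. For shares across depths each barcode was thinned to 1000 UMIs, leaving out 26 antibody and 6 control NK barcodes. No doublets were removed in the values reported; removal by Scrublet scores (1182 antibody and 1548 control barcodes) was an alternative. No correction for free RNA was made. Macrophage barcodes had at least 2000 CPM of C1q genes and tumour barcodes more than 1 Hmga2 UMI.

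Named genes were the 10 highest and 10 lowest by 3 rules, namely the NK ratio between libraries, its difference from the CD8 T ratio, and the smaller NK over CD8 T ratio of the 2 libraries, all with at least 50 UMIs. The first and second also asked for detection in 10% of NK barcodes of a library, and the first for an NK level of at least 0.5 of that in all other barcodes. Gene models and sex-linked, T cell receptor, immunoglobulin, haemoglobin, ribosomal and mitochondrial genes were left out. List members, and the genes set beside the Gzma split, were examples. The scripts were tested on simulated data. Tools were scanpy 1.11.5, scipy 1.17.1, numpy 2.4.6, pandas 2.3.3 and matplotlib 3.10.9 under Python 3.11.15.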

Additional observations from a re-analysis of the deposited data

Results flagged for a closer look

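Among genes named for the highest and lowest differences between NK and CD8 T ratios, 3 were at least 2-fold apart in opposite directions. The ratios were of antibody over control, and the difference was not tested. The named genes were chosen by this same difference, and a count over all measured genes is not given here. Ms4a4c had log2 ratios of -2.67 in NK and 1.05 in CD8 T barcodes, where the control library held 7 UMIs. Ccr2 had -1.12 in NK and 1.86 in CD8 T barcodes, where the control library held 1 UMI. Magohb, an exon junction protein gene, had -1.08 in NK and 1.55 in CD8 T barcodes, where the control library held 5 UMIs. These low counts limit the CD8 T values.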

How the results depend on the processing

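No paired analysis was possible because each group has 1 library, and the replicate number only names it. No library can be left out. NK barcodes are few and shallow, with 143623 control UMIs in all, so ratios ask for 20 UMIs over both libraries and single genes with 1 to 3 control UMIs have wide intervals. Reads shared by Ly49 or granzyme paralogs cannot be assigned here.

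The log2 ratio of NK shares, 1.74 over all kept barcodes, was 1.01 per barcode with at most 1 Hmga2 UMI, 0.14 per barcode with a Ptprc UMI and 1.27 with C1q under 500 CPM. Under the other 12 settings it lay within the interval of 1.33 to 2.17. The count of genes at least 2-fold higher with the antibody, 488, was 260 after subtracting the ratio of all other kept barcodes, 290 after subtracting the median ratio of CD8 T, macrophage and tumour barcodes, 1848 with no minimum of UMIs, 81 with 100 UMIs and 181 at 1000 UMIs per barcode. The count of lower genes, 278, was 508 after subtracting all other kept barcodes, 2488 with no minimum, 18 with 100 UMIs and 89 at 1000 UMIs. Subtracting all other barcodes, whose mix of cells differed between the libraries, thus turned the split of calls from mostly higher to mostly lower. Of genes 2-fold apart between NK and CD8 T barcodes, 78 higher became 28 at 1000 UMIs, and 100 lower became 34 at 1000 UMIs and 43 when CD8 T barcodes had none of the 5 NK genes. List medians moved with the subtraction of all other barcodes to -1.09 for granule genes, -0.84 for NK cytokines and -2.42 for interferon gamma response genes. With the 3-class median they moved to -0.55 for NK cytokines and -1.20 for interferon gamma response genes. The log2 ratio of cycling shares, -1.31 (-2.57 to 0.0028), was -2.75 (-5.43 to -0.82) at 1000 UMIs, on 3 antibody and 8 control cycling barcodes.

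Of the single genes followed across settings, 104 were at least 2-fold apart and 50 were not. After subtracting the ratio of all other kept barcodes, 22 of those under 2-fold changed sign, among them Xcl1, Ifng, Cxcr3 and Irf8, and so did 21 of the 104: H2aj (-0.35), Cox5a (-0.59), Ptpn18 (-0.84), H1f4 (-0.78), Sdf2l1 (-0.13), Snrpf (-1.67), Phb2 (-0.84), Gzmc (0.079), Tnf (-0.088), Socs3 (-1.11), Il12rb2 (-1.49), Il7r (-1.33), Ifnar2 (-1.16), Cd7 (-1.25), Gbp2 (-1.88), Iigp1 (-2.05), H2-D1 (-0.68), H2-Q4 (-1.45), Tnfaip3 (-0.22), Atf3 (-0.37) and Lag3 (-0.71). With the 3-class median, chosen after seeing the data, 19 of those under 2-fold and 16 of the 104 did: Cox5a (-0.48), H1f4 (-0.66), Gzmd (0.93), Snrpf (-1.74), Phb2 (-0.91), Gzmc (1.38), Gzmf (0.77), Socs3 (-0.91), Il12rb2 (-0.36), Ifnar2 (-0.53), Cd7 (-1.10), Gbp2 (-1.16), Iigp1 (-0.69), H2-D1 (-0.36), H2-Q4 (-1.13) and Atf3 (-0.12). At 1000 UMIs Flt3l (0.21), Tmem176a (-0.46), Cd7 (-0.12), Iigp1 (-2.12) and Mcm5 (0.94) did, with at least 3 UMIs of the NK genes Tpx2 (0.20), and with no C1q limit, also chosen after seeing the data, Cd74 (-0.0065). The cause was not tested. Median-of-ratios scaling subtracted -0.05 from every log2 ratio, so each rose slightly.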
